A study of Mus musculus with 6 samples.

Results

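The smooth muscle contractile genes of the prostate stroma were taken as the rows whose gene symbol was 1 of 10 names, namely Acta2, Actg2, Myh11, Mylk, Tagln, Cnn1, Smtn, Lmod1, Des and Synpo2. All 10 were found, each in 1 row, among 47719 gene identifiers. RNA had been measured in whole prostates of 6 mice of the strain B6.129S4-Trp53tm3.1Tyj/J, with 2 mice of each Trp53 genotype. Wildtype mice 39 and 41 were Trp53+/+, heterozygous mice 37 and 40 were Trp53R270H/+ and homozygous mice 47 and 49 were Trp53R270H/R270H, where the numbers are those of the animals, and values are given in this order of mice throughout. All 6 were about 3 months old, had been irradiated over the whole body with 5 Gy, and prostates were collected after 6 h, so that no unirradiated mouse was compared. No Cre line and no prostate lobe is named for these samples, and the RNA is that of all cells in the dissected tissue.

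Smooth muscle of the prostate forms sheaths around the glandular ducts and the walls of blood vessels, and it expels secretion by contracting. Its contraction begins when calcium activates myosin light chain kinase, which phosphorylates the regulatory light chain of smooth muscle myosin and lets it pull on actin filaments. The filaments are anchored at dense bodies and tied to intermediate filaments of desmin. The genes of this apparatus are switched on together by serum response factor and its partner myocardin, through a sequence called the CArG box.

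Values are FPKM, the number of sequenced fragments per kilobase of exon, scaled to the mapped fragments of the library, so levels of different genes can be compared per length. Summed over all genes, FPKM ran from 518671 to 636407 per mouse, and the number of fragments relative to wildtype mouse 39, read from the spacing of the lowest values, ran from about 0.787 to 1.08. The absolute depth is unknown, and no interval for counting error can be given. As checks of the labels, Trp53 lay between 17.3 and 21.4 FPKM in the 6 mice, and Cdkn1a, a target gene of p53, went from 109 and 101 FPKM in wildtype to 40.5 and 41.4 FPKM with 1 mutant allele and to 6.70 and 6.17 FPKM with both. Libraries of 2 mice stood apart in their tissue markers, and they are also the mice at both ends of most smooth muscle genes. The summed FPKM of 4 seminal vesicle genes (Svs1, Svs3a, Svs6 and Pate4) was 170 in wildtype mouse 39 and 59466 in homozygous mouse 47, against 4508 to 5240 in the other 4 mice. The remaining genes of that list, Svs2, Svs4 and Svs5, were listed at 0 in mouse 47. With them included, the sum was 3488 in mouse 39, 59466 in mouse 47 and 35187 to 56900 in the other 4 mice. In the full sum, only mouse 39 therefore stood apart. Probasin (Pbsn), the secretory protein of the prostate epithelium, was 257 FPKM in homozygous mouse 47 and between 7329 and 11512 FPKM in the other mice. The main counts and medians below, and the values of several single genes, are also given without them.

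The promoter of Acta2 is shown because Acta2 was the member with the highest level, and that of Synpo2 because its values were the most clearly separated by genotype. Both windows were taken from RefSeq on GRCm38.p6, run from 250 bases before to 50 bases after the annotated start, and are written 5′ to 3′ on the minus strand of the gene. They lie at chr19:34255324-34255623 for Acta2 and chr3:123236100-123236399 for Synpo2. Capitals mark CArG-like boxes, which begin with CC, end with GG and hold 6 bases between them, of which at most 1 is G or C.
Acta2: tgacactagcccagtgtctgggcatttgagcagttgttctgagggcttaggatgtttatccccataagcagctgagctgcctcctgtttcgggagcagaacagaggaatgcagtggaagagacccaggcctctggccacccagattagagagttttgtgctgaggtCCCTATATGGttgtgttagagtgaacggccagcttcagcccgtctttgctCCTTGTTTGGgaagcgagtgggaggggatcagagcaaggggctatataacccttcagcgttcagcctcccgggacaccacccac
Synpo2: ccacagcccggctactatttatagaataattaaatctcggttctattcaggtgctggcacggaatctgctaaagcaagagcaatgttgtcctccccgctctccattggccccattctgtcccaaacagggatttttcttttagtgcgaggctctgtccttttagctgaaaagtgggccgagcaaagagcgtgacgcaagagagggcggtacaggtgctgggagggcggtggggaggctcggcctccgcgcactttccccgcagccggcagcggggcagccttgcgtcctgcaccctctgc

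Windows of the same kind were matched for 7 of the 10 members, and those of Actg2, Myh11 and Tagln were not. The Acta2 window held 2 CArG-like boxes, at chr19:34255448-34255457 and chr19:34255398-34255407, each with 1 G or C inside, and the windows of Cnn1, Des, Lmod1, Mylk, Smtn and Synpo2 held none. Of 32851 promoter windows of this length in the genome, 9.98% held at least 1 such box and 0.822% held 2 or more. The strict box, with A or T at all 6 inner positions, was found in 1.63% of these windows and in 0 of the 7 member windows. A match describes the letters only, and these short windows leave out introns and distant sequence.

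The 10 genes covered a wide range of levels, and the order of the mice was similar in most of them. Averaged over the 6 mice, Acta2 was the highest at 597 FPKM, the gene ranked 98 among all identifiers, and Lmod1 the lowest at 18.8 FPKM, ranked 4150. Homozygous mouse 47 had the highest value in 8 of the 10 genes and wildtype mouse 39 the lowest in 8 of the 10. Over all 13818 genes with a mean of at least 1 FPKM, the genes tested here, mouse 47 was the highest in 20.5% and mouse 39 the lowest in 20.2%. Summed over the 10 genes, FPKM reached 1782 and 2117 in the wildtype pair, 2455 and 2009 in the heterozygous pair, and 2946 and 2031 in the homozygous pair. Except for mouse 47, which was above all others, the sums of the genotypes overlapped, and they made up between 0.327% and 0.463% of all FPKM of a mouse.

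**Figure D1:**
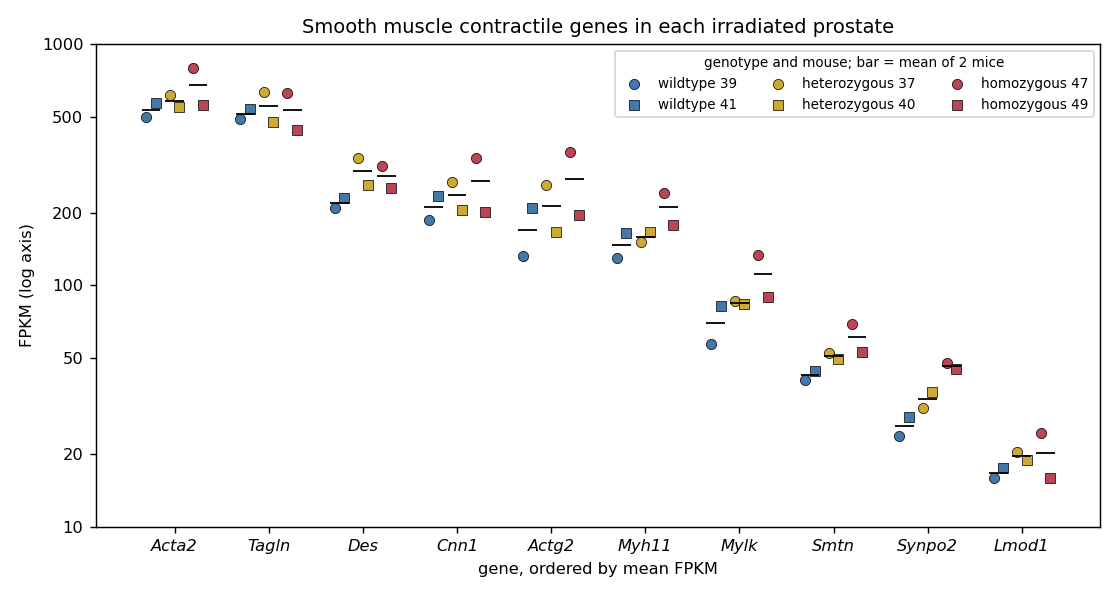
FPKM (vertical axis, log scale) of the 10 smooth muscle genes (horizontal axis, ordered by mean) in each of the 6 mice, with 1 point per mouse and a black bar for the mean of the 2 mice of a genotype. Homozygous mouse 47 is the top point in 8 of the 10 genes and wildtype mouse 39 the bottom point in 8, while the 3 genotypes follow each other without overlap in Mylk, Smtn and Synpo2.

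No member passed the test in any comparison of genotypes. Tests were run with limma on log2(FPKM + 0.1), where the moderated F-test compares the 3 genotypes contrasts take each pair of genotypes, and p-values were adjusted by Benjamini-Hochberg across all 13818 genes, with a threshold of 0.05. By the F-test 0 of 10 members had an adjusted p under the threshold, as had 0.101% of all tested genes. Between homozygous and wildtype mice it was 0 of 10 members beside 0.384% of all genes, between heterozygous and wildtype mice 0 of 10 beside 0%, and between homozygous and heterozygous mice 0 of 10 beside 0.0145%. At an unadjusted p under 0.05 limma counted 1 of 10 members by the F-test (11.5% of all genes), 3 for homozygous against wildtype (18%), 1 for heterozygous against wildtype (6.87%) and 1 for homozygous against heterozygous (6.39%). With the test run on each gene alone, these unadjusted counts were 1, 1, 0 and 1 in the same order, and the adjusted counts were all 0. The median log2 fold change of the members between homozygous and wildtype mice was 0.43 with all mice. Without mouse 39, mouse 47 or both, it was 0.31, 0.22 and 0.05 in this order, beside -0.04 over all genes in each.

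Mean values of the 10 genes were nevertheless mostly higher in mutant mice. The mean log2 value of homozygous mice was above that of wildtype mice in 10 of 10 members, beside 45% of all tested genes, with a median log2 fold change of 0.43 against -0.04 over all genes. Heterozygous mice were above wildtype mice in 10 of 10 members (47.2% of all genes), with a median of 0.25 against -0.01. Homozygous mice were above heterozygous mice in 8 of 10 members (45.7% of all genes), with a median of 0.22 against -0.03, and in 10 of 10 with quantile normalization and 9 of 10 with equal sums of FPKM, where Tagln and, with quantile normalization, Des changed sign. The size of these medians depended on single mice. Without homozygous mouse 47 the median of homozygous against wildtype mice was 0.22, with 7 of 10 members higher, and without homozygous mouse 49 it was 0.70. Without wildtype mouse 39 it was 0.31, with 9 of 10 higher. Without wildtype mouse 39 the median of heterozygous against wildtype mice was 0.03, with 8 of 10 higher, and without heterozygous mouse 37 it was 0.18, with 7 of 10 higher. The median of homozygous against heterozygous mice was -0.07 without mouse 47, with 4 of 10 higher, 0.07 without heterozygous mouse 40, with 6 of 10 higher, and 0.48 without mouse 49. Without wildtype mouse 39 and homozygous mouse 47 together, the median of homozygous against wildtype was 0.05, with 5 of 10 members higher.

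The 2 homozygous mice differed from each other more in these genes than in the median gene. The median absolute difference between mice 47 and 49 over the 10 members was 0.51 on the log2 scale, beside 0.22 over all tested genes. Between the wildtype mice it was 0.22 (0.21 over all genes) and between the heterozygous mice 0.20 (0.19 over all genes). In 5 of the 10 members, Acta2, Actg2, Tagln, Cnn1 and Lmod1, the difference between the 2 homozygous mice was larger than the mean difference between homozygous and wildtype mice. In bulk tissue, fewer smooth muscle cells and less RNA per cell cannot be told apart.

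Of the actins, Acta2 encodes the alpha actin of vascular and other smooth muscle and Actg2 the gamma actin of visceral smooth muscle. Acta2 (ENSMUSG00000035783, chr19:34241090-34255590, minus strand, GRCm38) stood at 498 and 568 FPKM in wildtype, at 614 and 546 in heterozygous and at 796 and 560 in homozygous animals. The genotypes overlapped, with mouse 47 alone above 614 FPKM. Against wildtype, its log2 fold change came to 0.33 in homozygous mice (standard error, SE, 0.24, 95% interval -0.27 to 0.92, limma adjusted p = 0.511) and to 0.12 in heterozygous mice (SE 0.24, limma adjusted p = 0.969). Actg2 (ENSMUSG00000059430, chr6:83512905-83536265, minus strand) stood at 132 and 209 FPKM in wildtype, at 262 and 166 in heterozygous and at 358 and 195 in homozygous animals. It had the widest range of the 10 genes, with mouse 47 at 2.72 times mouse 39, and each genotype overlapped the others. The log2 fold change of Actg2 in homozygous mice was 0.67 (SE 0.40, 95% interval -0.31 to 1.66, limma adjusted p = 0.421), and without mouse 47 it was 0.23. Without wildtype mouse 39 that of heterozygous mice was near 0, where it was 0.33 with all mice.

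The balance between both actins shifted from mouse to mouse. The ratio of Actg2 to Acta2 FPKM came to 0.265 and 0.367 in wildtype mice 39 and 41, to 0.426 and 0.304 in heterozygous mice 37 and 40, and to 0.450 and 0.348 in homozygous mice 47 and 49. The mice with the highest Actg2 were those with the highest ratio, and the ratios of the 3 genotypes overlapped. Actin genes are close in sequence, yet in the GENCODE annotation 0% of the 50-base stretches of the longest Actg2 transcript and 0.352% of those of Acta2 also occurred in transcripts of another gene.

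Myh11 encodes the heavy chain of smooth muscle myosin and Mylk the kinase that activates it. Myh11 (ENSMUSG00000018830, chr16:14194535-14291372, minus strand) stood at 130 and 164 FPKM in wildtype, at 152 and 167 in heterozygous and at 242 and 178 in homozygous animals. Both homozygous values lay above the other 4, while wildtype and heterozygous mice overlapped. The log2 fold change of Myh11 was 0.51 in homozygous mice (SE 0.21, 95% interval -0.01 to 1.02, limma adjusted p = 0.284), and 0.28 without mouse 47. Mylk (ENSMUSG00000022836, chr16:34745210-35002420, plus strand) stood at 57.1 and 82.5 FPKM in wildtype, at 86.2 and 83.5 in heterozygous and at 133 and 89.5 in homozygous animals. Its values followed the number of R270H alleles without overlap, but wildtype mouse 41 and heterozygous mouse 40 differed by about 1 FPKM. Between homozygous and wildtype mice the log2 difference was 0.67 (SE 0.25, 95% interval 0.04 to 1.30, limma adjusted p = 0.259), falling to 0.38 without mouse 47 and 0.40 without mouse 39. The gene also produces telokin, a short protein from its last exons, and the gene-level value does not separate the products.

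Tagln, Cnn1 and Smtn encode transgelin, calponin and smoothelin, proteins that bind the actin filaments of contractile smooth muscle, and Lmod1 encodes a leiomodin, which starts new filaments. Tagln (ENSMUSG00000032085, chr9:45929619-45936058, minus strand) stood at 488 and 538 FPKM in wildtype, at 632 and 475 in heterozygous and at 624 and 438 in homozygous animals. It had the largest limma adjusted p of the members in the F-test, 0.968, and its 2 lowest values came from 1 heterozygous and 1 homozygous mouse. Homozygous minus wildtype, its log2 difference was 0.03 (SE 0.26, 95% interval -0.61 to 0.67, limma adjusted p = 0.963) and turned to -0.22 without mouse 47 and -0.04 without mouse 39. Cnn1 (ENSMUSG00000001349, chr9:22099216-22109630, plus strand) stood at 187 and 234 FPKM in wildtype, at 268 and 206 in heterozygous and at 338 and 202 in homozygous animals, all overlapping. Homozygous minus wildtype, its log2 difference was 0.32 (SE 0.30, limma adjusted p = 0.596) and -0.05 without mouse 47.

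Smtn (ENSMUSG00000020439, chr11:3517523-3540612, minus strand) stood at 40.7 and 44.1 FPKM in wildtype, at 52.6 and 49.6 in heterozygous and at 69.1 and 52.8 in homozygous animals. The 3 genotypes did not overlap, although heterozygous mouse 37 and homozygous mouse 49 were almost equal. Against wildtype, its log2 fold change came to 0.51 in homozygous mice (SE 0.16, 95% interval 0.11 to 0.90, limma adjusted p = 0.211) and 0.27 in heterozygous mice (SE 0.16, limma adjusted p = 0.856), and that of homozygous mice was 0.32 without mouse 47. Lmod1 (ENSMUSG00000048096, chr1:135324807-135368065, plus strand) stood at 15.9 and 17.5 FPKM in wildtype, at 20.4 and 18.9 in heterozygous and at 24.4 and 15.9 in homozygous animals. Both heterozygous mice were above both wildtype mice, whereas the homozygous mice held both the highest and the lowest value. Homozygous minus wildtype, its log2 difference was 0.23 (SE 0.21, limma adjusted p = 0.593) and -0.07 without mouse 47.

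Des encodes desmin, the intermediate filament protein of smooth and striated muscle, and Synpo2 encodes an actin-bundling protein found in smooth muscle and at the Z-discs of striated muscle. Des (ENSMUSG00000026208, chr1:75360329-75368579, plus strand) stood at 209 and 231 FPKM in wildtype, at 337 and 261 in heterozygous and at 313 and 254 in homozygous animals. All 4 mutant mice were above both wildtype mice, and heterozygous and homozygous mice overlapped. Against wildtype, its log2 fold change came to 0.43 in heterozygous mice (SE 0.20, 95% interval -0.06 to 0.93, limma adjusted p = 0.818) and 0.36 in homozygous mice (SE 0.20, 95% interval -0.14 to 0.86, limma adjusted p = 0.397). Without heterozygous mouse 37 the former was 0.25, and without homozygous mouse 47 the latter was 0.21, or 0.14 without mice 39 and 47.

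Synpo2 (ENSMUSG00000050315, chr3:123076519-123236149, minus strand) stood at 23.7 and 28.4 FPKM in wildtype, at 31.1 and 36.3 in heterozygous and at 47.7 and 45.0 in homozygous animals. The values of the 6 mice were ordered by the number of R270H alleles, and the homozygous mice, which differed in most members, were close to each other here. Wildtype mice averaged 26.1 ± 3.29 FPKM (SD, n = 2), heterozygous mice 33.7 ± 3.71 FPKM (SD, n = 2) and homozygous mice 46.4 ± 1.92 FPKM (SD, n = 2). Against wildtype, the log2 fold change came to 0.83 in homozygous mice (SE 0.14, 95% interval 0.48 to 1.19, limma adjusted p = 0.109) and 0.37 in heterozygous mice (SE 0.14, 95% interval 0.01 to 0.73, limma adjusted p = 0.705), so neither passed the threshold. Leaving out each mouse in turn gave values between 0.70 and 0.96 for homozygous against wildtype mice, and leaving out mice 39 and 47 together gave 0.66. Among the 10 members Synpo2 had the smallest limma adjusted p in both comparisons with wildtype, while between homozygous and heterozygous mice it tied with Myh11 at 0.707. Relative to Tagln, the ratio of Synpo2 FPKM was 0.0486 and 0.0528 for wildtype, 0.0491 and 0.0765 for heterozygous and 0.0764 and 0.103 for homozygous animals.

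**Figure D2:**
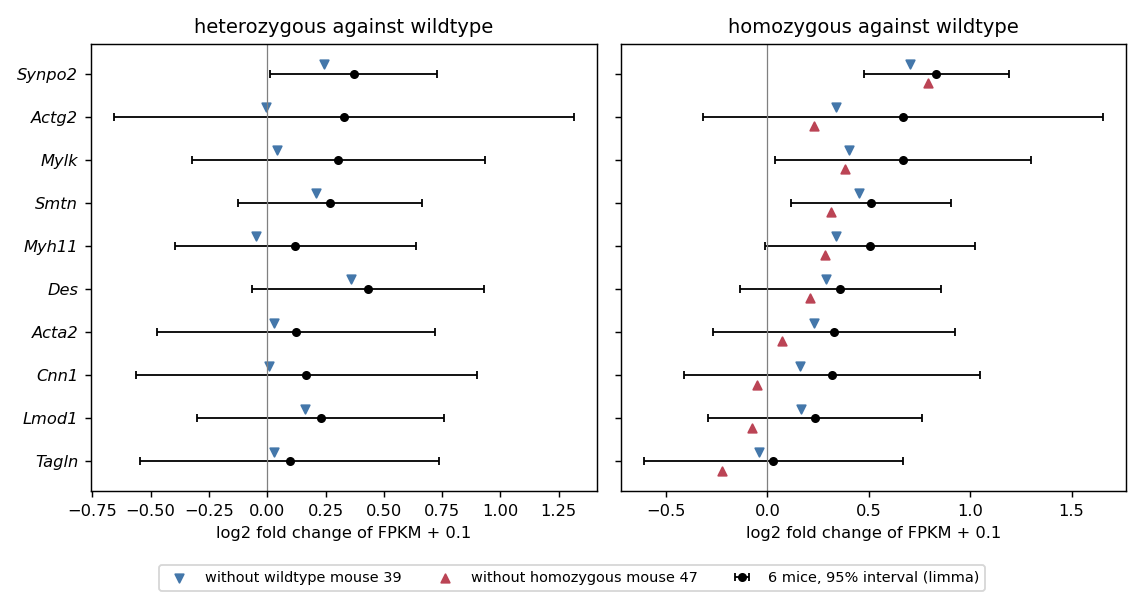
Log2 fold change of FPKM + 0.1 (horizontal axes) of each member (vertical axis) for heterozygous against wildtype mice (left) and homozygous against wildtype mice (right), as black points with 95% intervals from limma. Triangles give the value without wildtype mouse 39 or homozygous mouse 47, and without mouse 47 Tagln, Cnn1 and Lmod1 lie below 0 while Synpo2 keeps the highest value.

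In 3 of the 10 members, Mylk, Smtn and Synpo2, the values of all mice were ordered by the number of R270H alleles from low to high, as they were in 3.85% of all tested genes. Both homozygous mice were above both wildtype mice in 5 of 10 members (21.3% of all genes), namely Myh11, Mylk, Smtn, Des and Synpo2. Both heterozygous mice were above both wildtype mice in 5 of 10 (19.2% of all genes), and both homozygous mice above both heterozygous mice in 4 of 10 (18% of all genes). In no member were both homozygous mice below both wildtype mice, beside 3970 of all 13818 tested genes. Nor were both heterozygous mice below both wildtype mice in any member, beside 2746 of all tested genes. Without mice 39 and 47 the counts were again 3, 5, 5 and 4, but with fewer mice to separate the shares of all genes were larger, at 12.4%, 46%, 31.6% and 35.4% in the same order. The counts also depended on scaling. With every mouse scaled to the same sum of FPKM, both homozygous mice were above both wildtype mice in 9 of 10 members (19.1% of all genes), all but Tagln, and with quantile normalization in 8 of 10 (22% of all genes).

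Viewed by mouse, the 10 genes had a common order at both ends. Relative to the mean of each gene, the median over the members was -0.33 in wildtype mouse 39 and 0.46 in homozygous mouse 47 on the log2 scale. It was -0.06 in wildtype mouse 41, 0.09 in heterozygous mouse 37, -0.04 in heterozygous mouse 40 and -0.06 in homozygous mouse 49, so that 4 mice of 3 genotypes lay close together. All 10 members were above their mean in mouse 47 and all 10 below it in mouse 39. Acta2 and Smtn were closest to the average profile of the members, with a root mean square difference of 0.06 and 0.07, and Synpo2 and Actg2 were farthest, at 0.23 for both.

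**Figure D3:**
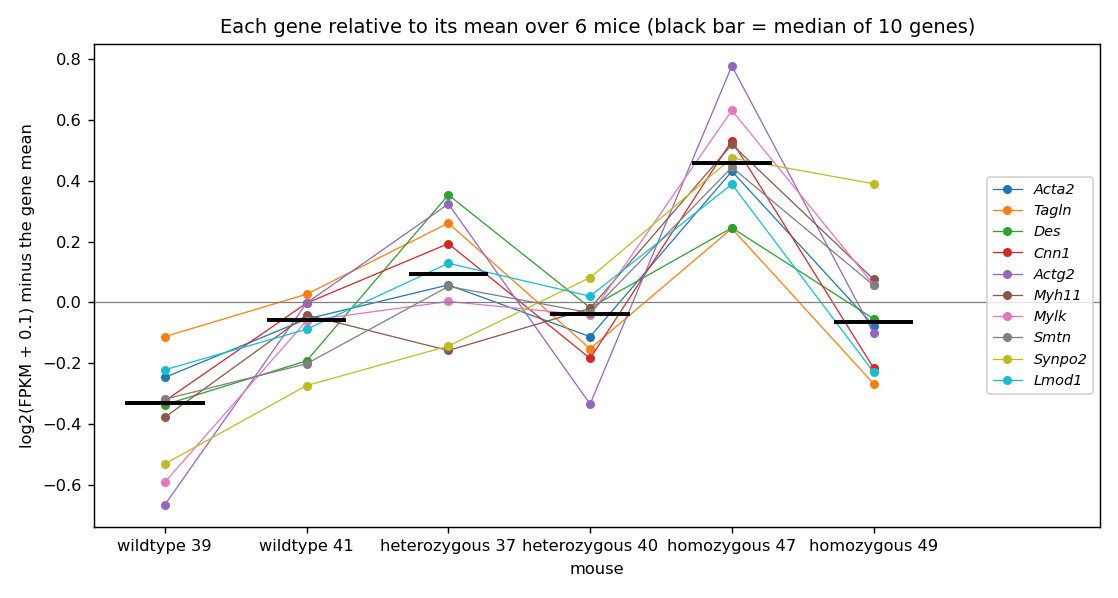
Log2(FPKM + 0.1) of each member minus its mean over the 6 mice (vertical axis) by mouse (horizontal axis), with thin lines joining the values of a gene and a black bar for the median of the 10 genes. The median is -0.33 in wildtype mouse 39 and 0.46 in homozygous mouse 47, and between -0.06 and 0.09 in the other 4 mice.

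Among 6350 other genes with a mean of at least 10 FPKM, outside the gene lists used here and with a named symbol, Rpain, Wfdc1, Pglyrp1, Bri3 and Mpc2 had the profile closest to the average of the members, with root mean square differences between 0.05 and 0.07 on the log2 scale over 6 mice. Rpain stood at 9.79 and 11.9 FPKM in wildtype, at 13.9 and 12.4 in heterozygous and at 16.9 and 13.5 in homozygous animals.

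Other genes of smooth muscle, from 4 lists with 41 genes of which 38 could be tested, also had mostly higher means in mutant mice. None passed limma's threshold in either direction in any comparison. At an unadjusted p under 0.05, 14 of 38 were higher in the homozygous than in the wildtype pair (8.65% of all genes), 2 in the heterozygous than in the wildtype pair (4.66%) and 2 in the homozygous than in the heterozygous pair (1.97%), and 0 were lower in any of these. The mean of homozygous mice was above that of wildtype mice in 32 of 38 (45% of all genes), with a median log2 fold change of 0.33 against -0.04, and 8 of 38 (3.85% of all genes) were ordered upwards by allele number. The 14 became 6 without mouse 39 (6.32% of all genes), 9 without mouse 47 (6.88%) and 2 without both (7.26%). The 32 became 29 without mouse 39, 29 without mouse 47 and 26 without both, with a median of 0.21, and the 8 became 10 without both, beside 12.4% of all genes.

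Of the contractile proteins and their regulators, 8 of the 11 tested had a higher mean in homozygous than in wildtype mice (45% of all genes), and 5 of 11 without mice 39 and 47. The regulatory units of myosin phosphatase, which counteracts the kinase, were among those ordered by allele number, with Ppp1r12a at 11.4 and 15.8 FPKM in wildtype, 17.0 and 18.2 in heterozygous and 25.8 and 20.8 in homozygous animals. Ppp1r12b was 21.4 and 25.9, 25.9 and 31.0, and 38.4 and 36.1 FPKM in the same order, so that wildtype mouse 41 and heterozygous mouse 37 were nearly equal. Both were named after their values were seen. The tropomyosin Tpm2, which is also made in skeletal muscle, stood at 329 and 487 FPKM in wildtype, at 610 and 545 in heterozygous and at 743 and 553 in homozygous animals, and Tpm1 was 312 and 403, 509 and 523, and 705 and 547 FPKM. Homozygous minus wildtype, the log2 difference was 0.81 for Tpm1 (limma adjusted p = 0.186) and 0.68 for Tpm2 (limma adjusted p = 0.275). Myl6, the essential light chain of myosin in many cell types, was 474 and 558, 610 and 500, and 579 and 448 FPKM, with a log2 fold change of -0.01.

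The GTPase and kinases of calcium sensitization, Rhoa, Rock1 and Rock2, were picked after their values were seen. Rhoa stood at 159 and 171 FPKM in wildtype, at 162 and 145 in heterozygous and at 129 and 147 in homozygous animals (homozygous log2 fold change -0.26, limma adjusted p = 0.392). Rock1 and Rock2 had log2 fold changes of -0.10 and 0.07 in homozygous mice. In Rhoa and Rock1 both homozygous mice were below both wildtype mice, as in 3970 of all 13818 tested genes, while Rock2 overlapped. Prkg1 did not reach the mean of 1 FPKM and was not tested.

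Among the 13 genes of dense bodies, adhesions and linkers, 13 had a higher mean in homozygous than in wildtype mice (45% of all genes) and 8 had both homozygous mice above both wildtype mice (21.3% of all genes). Without mice 39 and 47 both counts were 9, beside 46% of all genes for each. The highest of them, Csrp1, which encodes a protein of the actin cytoskeleton, stood at 453 and 517 FPKM in wildtype, at 585 and 461 in heterozygous and at 542 and 448 in homozygous animals, overlapping throughout. Filamin A (Flna), which crosslinks actin, was 254 and 277, 322 and 259, and 370 and 256 FPKM, and Ilk, a kinase of integrin adhesions, was 68.5 and 77.9, 78.8 and 69.1, and 86.7 and 74.3 FPKM. Flna and Ilk were highest in mouse 47, as were Acta2 and Cnn1. The largest log2 fold changes in homozygous mice on this list, in genes singled out after their values were seen, were 0.95 for Nexn (limma adjusted p = 0.146) and 0.91 for Pdlim3 (limma adjusted p = 0.180), and both genes are also used by striated muscle.

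Of 6 transcriptional regulators, 3 had a higher and 3 a lower mean in homozygous than in wildtype mice, and 4 a higher mean without mice 39 and 47. Srf stood at 15.1 and 17.2 FPKM in wildtype, at 19.5 and 17.0 in heterozygous and at 15.7 and 15.4 in homozygous animals, with a log2 fold change of -0.05 in homozygous mice (SE 0.13, 95% interval -0.37 to 0.27, limma adjusted p = 0.855). Mouse 47, which had the highest contractile genes, was not high in Srf. Myocd, the partner of Srf in smooth muscle, was low at 0.866 to 2.13 FPKM, and was named after its values were seen. Mkl2, a related partner of Srf, was 11.1 and 11.9 FPKM in wildtype mice, 9.58 and 12 FPKM in heterozygous mice and 7.80 and 13.4 FPKM in homozygous mice, and Klf4, which counteracts the contractile programme, was 10.9 and 16.3, 16.9 and 13.9, and 8.93 and 13.6 FPKM. Both were lowest in mouse 47.

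Of the channels, receptors and membrane genes, 8 of 10 could be tested, and the muscarinic receptor Chrm2 and the oxytocin receptor Oxtr were below a mean of 1 FPKM. All 8 had a higher mean in homozygous than in wildtype mice (45% of all genes), also without mice 39 and 47, with log2 fold changes between 0.22 and 0.77. Jph2, which ties the cell membrane to the calcium store in striated and smooth muscle, stood at 20.4 and 24.1 FPKM in wildtype, at 32.3 and 30.1 in heterozygous and at 36.1 and 30.4 in homozygous animals, with a log2 fold change of 0.58 (limma adjusted p = 0.170). Kcnma1, the pore of a calcium-activated potassium channel, was 4.49 and 3.49, 2.50 and 5.82, and 3.50 and 7.08 FPKM, and the muscarinic receptor Chrm3 was 4.68 and 2.96, 3.65 and 3.57, and 4.27 and 4.45 FPKM. Both overlapped between homozygous and wildtype mice.

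Markers of other cell types moved with the smooth muscle genes in several ways, and their part in these results was not tested. Skeletal muscle genes separated wildtype from mutant mice. All 12 listed, among them Acta1 with the highest level, had both heterozygous and both homozygous mice above both wildtype mice (19.2% and 21.3% of all genes). Without mice 39 and 47 the remaining mice were also separated in all 12, beside larger shares of 31.6% and 46% of all genes. None of the 12 passed limma's adjusted threshold. The list added up to 1942 and 2801 FPKM in wildtype, to 5364 and 5643 in heterozygous and to 6654 and 5706 in homozygous animals, and none of its genes was at 0. The median log2 fold change of the list was 1.23 in heterozygous and 1.38 in homozygous mice, larger than that of any smooth muscle member. Des, Synpo2, Tpm1, Tpm2, Nexn, Pdlim3 and Jph2 are also genes of striated muscle, while Acta2, Actg2, Cnn1, Tagln and Myh11 mark smooth muscle. Among the members, both homozygous mice were above both wildtype mice in Myh11, Mylk, Smtn, Des and Synpo2 (21.3% of all genes). Homozygous and wildtype mice overlapped in Acta2, Actg2, Cnn1, Tagln and Lmod1.

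Fibroblast genes did not share the peak in mouse 47. The 8 listed, with Dcn as the highest, added up to 475 and 445 FPKM in wildtype, to 551 and 585 in heterozygous and to 342 and 745 in homozygous animals, lowest in mouse 47 and highest in mouse 49. Endothelial genes (8 listed, Egfl7 highest) summed to 51.2 and 67.8, 80.1 and 88.4, and 84.5 and 85.0 FPKM, and pericyte genes (6 listed, Rgs5 highest) to 33.3 and 35.4, 40.4 and 45.5, and 38.3 and 52.1 FPKM. In both sums all 4 mutant mice lay above both wildtype mice, with mouse 47 not the highest. Within the pericyte list Notch3 ran the other way, at 7.76 and 6.26, 4.84 and 5.04, and 3.45 and 5.47 FPKM in the same order of mice, and was named after its values were seen.

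Luminal and seminal vesicle sums differed widely between libraries. The 8 luminal genes, dominated by Pbsn, added up to 13226 and 13871 FPKM in wildtype, to 10397 and 9884 in heterozygous and to 1786 and 8886 in homozygous animals. Among them, Krt8, picked after its values were seen, was 179 FPKM in mouse 47 and 134 to 189 FPKM in the other mice. The 4 basal genes, Krt15 the highest, summed to 124 to 186 FPKM. Of the 7 seminal vesicle genes, Svs5 the highest, Svs2, Svs4 and Svs5 were listed at 0 in homozygous mouse 47 and Svs2 also in homozygous mouse 49, and the full list added up to 3488 and 49194 FPKM in wildtype, to 56900 and 55693 in heterozygous and to 59466 and 35187 in homozygous animals. Since the other 4 genes of the list had their highest sum in mouse 47, those entries are given as listed only.

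The remaining marker lists had no gene at 0. Urothelial genes (5 listed, Upk1a highest) summed to 207 to 296 FPKM, a sum carried by Upk1a and Upk1b. Upk1a was highest in mouse 39, at 204 FPKM beside 115 FPKM in mouse 47. Upk1b was lowest in mouse 47, at 52.2 FPKM beside 89.8 FPKM in mouse 39. The other 3, Upk2, Upk3a and Upk3b, were lowest in mouse 39, with Upk2 at 1.92 FPKM there and 22.1 FPKM in mouse 47, and were named after their values were seen. Adipocyte genes (6 listed, Cfd highest) added up to 446 and 311 FPKM in wildtype, to 379 and 475 in heterozygous and to 670 and 590 in homozygous animals. Schwann cell and neuronal genes (6 listed, Uchl1 highest) summed to 59.0 to 116 FPKM and leukocyte genes (6 listed, Lyz2 highest) to 38.6 to 122 FPKM. The leukocyte sum was lowest in mouse 47, where Lyz2 was 29.2 FPKM. Cd3e, named after its values were seen, was highest in mouse 47, at 0.961 FPKM.

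**Figure D4:**
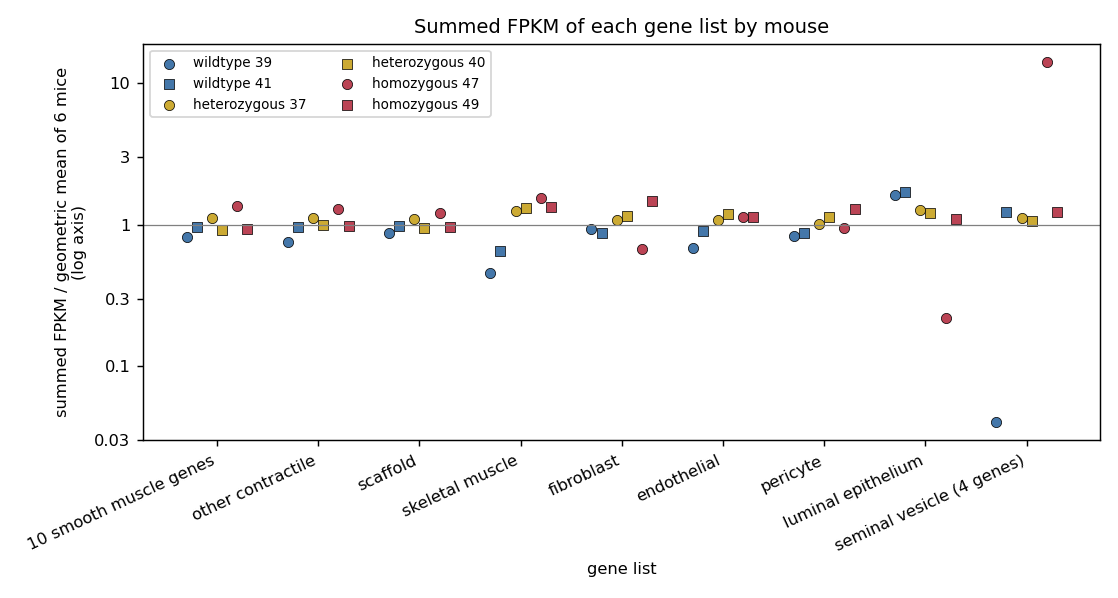
Summed FPKM of 9 gene lists (horizontal axis) in each mouse, divided by the geometric mean of the 6 mice (vertical axis, log scale), with 1 point per mouse. Skeletal muscle genes lie below 1 in both wildtype mice only, and wildtype mouse 39 and homozygous mouse 47 are the extremes of the 4 seminal vesicle genes, at 170 and 59466 FPKM.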

How the data were processed

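Total RNA of snap-frozen prostates was made into stranded mRNA libraries and sequenced as read pairs. Gene-level FPKM per mouse were deposited by the authors, on GRCm38 and made with HISAT, Cufflinks and Cuffnorm, tools named in the submitters' processing notes without versions. The annotation, the strand setting and any scaling between libraries are not given in the sources used here. Of the 10 members, 6 are overlapped by an annotated gene on the opposite strand. FPKM holds no counts, so no count test was used.

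Genes with a mean of at least 1 FPKM (13818 of 47719) were tested on log2(FPKM + 0.1) with limma 3.58.1 in R 4.3.3 (lmFit, eBayes with an intensity trend, all 6 mice, no block), with Benjamini-Hochberg adjustment over these genes, a procedure first tested on simulated FPKM with known changes. Fold changes on this scale understate those of low genes. Nothing in the labels names litters, cages or batches. Other steps used Python 3.11.15, pandas 2.3.3 and matplotlib 3.10.9. Positions come from GENCODE M21, which holds 47219 of the identifiers. For the 124 repeated symbols the identifier with the highest mean was taken.

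The members and all gene lists were chosen with earlier results of these data known. Genes named beside the members were the 3 with the highest mean of each smooth muscle list, any that passed the threshold, the 5 closest in profile, and the highest marker of each other list. Alternatives were other pseudocounts, filters and scalings, a variance prior without trend, a test on each gene alone, and leaving out each mouse. Leaving out mice 39 and 47 together, list counts without them, overlap counts under other scalings and the CArG-like pattern were chosen after seeing the data.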

Additional observations from a re-analysis of the deposited data

How the results depend on the processing

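In all 16 alternatives, 0 members passed limma's threshold in any of the 4 comparisons. The smallest adjusted p of a member was 0.0833, for Synpo2 in homozygous against wildtype mice with quantile normalization. Pseudocounts, filters, scalings and other variance settings moved no median of the members by more than the spread between mice, 0.25 on the log2 scale. With quantile normalization the log2 fold change between homozygous and heterozygous mice became 0.10 for both Tagln and Des, and with equal sums of FPKM 0.0058 for Tagln. Both homozygous mice were above both wildtype mice in 8 members with quantile normalization and 9 with equal sums. The causes of changes between alternatives were not tested.

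With 1 mouse left out, the remaining mouse of its genotype is assumed to vary like the others. The median of the members ran from 0.22 (without mouse 47) to 0.70 (without mouse 49) for homozygous against wildtype and from -0.072 (without mouse 47) to 0.48 (without mouse 49) for homozygous against heterozygous. For homozygous against wildtype, Acta2 ran from 0.074 to 0.58, Actg2 from 0.23 to 1.11, Tagln from -0.22 to 0.29, Des from 0.21 to 0.51, Cnn1 from -0.053 to 0.69 and Lmod1 from -0.074 to 0.54. For heterozygous against wildtype, Actg2 ran from -0.0033 to 0.66, Myh11 from -0.048 to 0.29, Tagln from -0.11 to 0.30, Des from 0.25 to 0.62 and Cnn1 from -0.021 to 0.36. For homozygous against heterozygous, Acta2 ran from -0.048 to 0.46, Actg2 from -0.10 to 0.78, Tagln from -0.32 to 0.19, Cnn1 from -0.22 to 0.53, Lmod1 from -0.30 to 0.31 and Des from -0.26 to 0.11.

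Without mice 39 and 47 together, an alternative chosen after seeing the data, the medians were 0.048 for homozygous against wildtype and -0.072 for homozygous against heterozygous. For homozygous against wildtype, Acta2 was then -0.021, Actg2 -0.10, Tagln -0.29, Cnn1 -0.21 and Lmod1 -0.14. For heterozygous against wildtype, Actg2 was -0.0033 and Myh11 -0.048. For homozygous against heterozygous, Acta2 was -0.048, Actg2 -0.10, Tagln -0.32, Cnn1 -0.22 and Lmod1 -0.30.

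Over all genes, 53 passed between homozygous and wildtype mice, against 4 without a filter, 30 with equal sums, 23 without the intensity trend and 0 with each gene alone. Leaving out 1 mouse gave 4 to 96. No paired analysis was possible because the genotypes share no animal numbers. The absolute depth is unknown, and 2 mice a genotype limit what the tests can resolve.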
